A study of Mus musculus with 6 samples.

Results

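FOXC2 binding around the renin gene *Ren1* and its neighbors *Golt1a*, *Kiss1* and *Etnk2* on mouse chromosome 1 was described from 2 pooled ChIP-seq peak lists. The ADR list came from podocytes of mice given adriamycin (ADR), an anthracycline that is toxic to podocytes, at 18 mg/kg on days 0 and 7, and the PBS list from control mice given PBS. Podocytes were collected by FACS on day 9, with 3 samples per condition. All mice were males of mixed genetic background that carried the mT/mG reporter and a Cre transgene active in podocytes, which switches the membrane reporter to green in these cells. By the methods and the names of the lists, the replicates of a condition were pooled before deposit. The peak names in each list carry an R1 tag all the same, and whether a list holds the reads of every replicate could not be checked. Either way there is a single list per condition, so the values carry no replicate error, no test between the conditions was possible, and the read depth behind the lists is unknown.

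The members are the peaks any part of which lies within 50 kb of the start of 1 of these 4 genes (GENCODE M21 on GRCm38). Of 81142 peaks in both lists, 25 did so: 15 of 40067 ADR peaks and 10 of 41075 PBS peaks. The joined windows cover chr1:133259800-133413572, a stretch of 153773 bp. The 4 genes were selected on the peaks of these same lists, so the numbers and folds of their peaks are given as a description. Each peak carries the fold enrichment over the local control that the authors' peak caller gave it. Throughout, a peak is called ADR only when no PBS peak shares 1 bp with it, and PBS only when no ADR peak does.

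Renin is the aspartyl protease that cuts angiotensinogen into angiotensin I, the first and rate-limiting step of the renin-angiotensin system. In the kidney it is made by the juxtaglomerular cells of the afferent arteriole, next to the glomerulus, and the cAMP pathway, acting through CREB and its coactivators, is the best known inducer of its transcription. FOXC2 is a forkhead transcription factor of podocytes and of vascular and lymphatic endothelium. All 4 genes are on the plus strand, in the order *Golt1a* (start 133309800), *Kiss1* (133321875), *Ren1* (133350510 to 133360325) and *Etnk2* (133363572). *Golt1a* encodes a Golgi vesicle transport protein, *Kiss1* the precursor of kisspeptin, the peptide that drives gonadotropin-releasing hormone neurons, and *Etnk2* an ethanolamine kinase of phosphatidylethanolamine synthesis.

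The highest ADR peak of the locus lay upstream of *Ren1*, at chr1:133344220-133344897, with its summit at −5.96 kb from the *Ren1* start in a stretch without an annotated gene. Summit windows of 4 ADR peaks are printed here because they hold the highest folds of the locus or lie beside the highest one. Each is 201 bases of the plus strand of GRCm38 (RefSeq), centered on the summit. Capitals mark every exact match, on either strand, to the 12 motifs searched.

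ADR peak at −5.96 kb (chr1:133344451-133344651, fold 42.1): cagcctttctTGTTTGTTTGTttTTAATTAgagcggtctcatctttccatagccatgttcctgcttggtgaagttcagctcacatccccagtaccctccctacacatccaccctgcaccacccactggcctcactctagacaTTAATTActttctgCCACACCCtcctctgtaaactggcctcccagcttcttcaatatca
ADR peak at −7.84 kb (chr1:133342574-133342774, fold 13.1): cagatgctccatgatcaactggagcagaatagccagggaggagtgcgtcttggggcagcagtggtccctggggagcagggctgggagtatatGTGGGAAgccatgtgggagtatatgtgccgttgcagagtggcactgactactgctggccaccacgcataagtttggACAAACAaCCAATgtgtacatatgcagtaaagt
ADR peak at −27.1 kb (chr1:133323338-133323538, fold 31.6): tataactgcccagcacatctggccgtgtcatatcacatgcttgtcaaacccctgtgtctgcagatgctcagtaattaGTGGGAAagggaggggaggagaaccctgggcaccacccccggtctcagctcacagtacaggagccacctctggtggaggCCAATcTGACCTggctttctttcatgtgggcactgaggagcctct
ADR peak at 37.6 kb (chr1:133388002-133388202, fold 25.0): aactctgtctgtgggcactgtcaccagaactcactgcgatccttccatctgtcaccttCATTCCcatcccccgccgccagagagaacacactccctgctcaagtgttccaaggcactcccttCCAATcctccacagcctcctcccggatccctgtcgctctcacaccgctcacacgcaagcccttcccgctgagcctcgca

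In the window at −5.96 kb the first capitals are a pair of overlapping forkhead matches (ACAAACA on the minus strand), the class of sequence that FOX proteins bind. They are followed by an LMX1B match (TTAATTA), by a second LMX1B match on the other side of the summit, and by a KLF match (GGGTGTGG on the minus strand). In the windows at −7.84 and −27.1 kb the capitals near the center are the RBPJ string GTGGGAA. In the window at 37.6 kb they are the TEAD string CATTCC and the NF-Y string CCAAT.

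**Figure D1:**
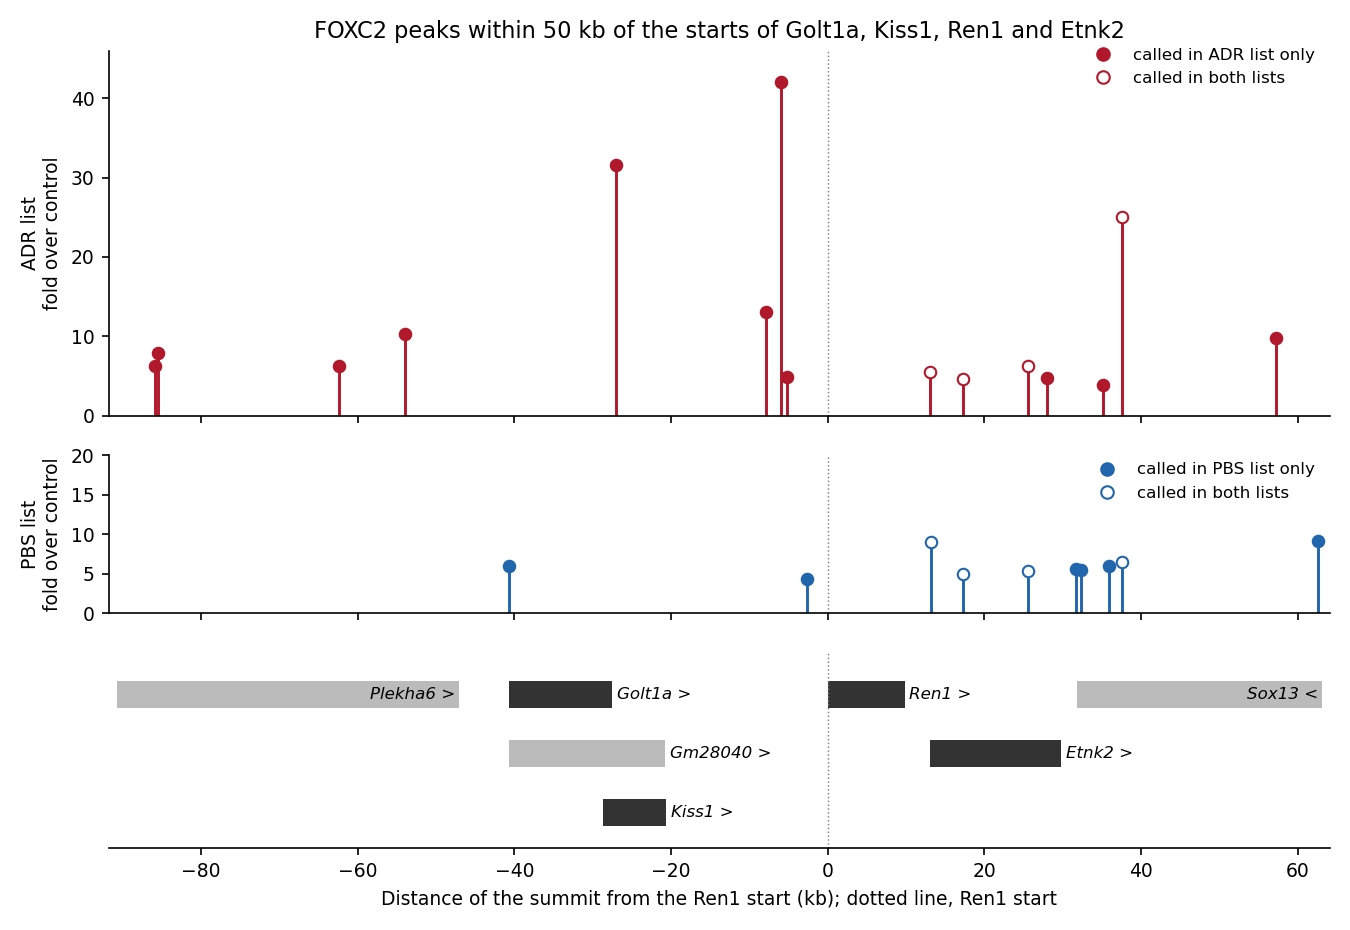
Fold over the local control (vertical axis, the same scale for both lists) of each FOXC2 peak against the distance of its summit from the *Ren1* start in kb, for the ADR list (red, top) and the PBS list (blue, middle), with the gene records below (dark, the 4 genes; arrowheads give the strand). Filled points were called in that list only and open points in both; all 8 ADR peaks and both PBS peaks upstream of *Ren1* are filled, and the highest points are the ADR peaks at −5.96, −27.1 and 37.6 kb.

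The ADR list called a cluster of 3 peaks upstream of *Ren1*, and the PBS list called none of them. The peak at −5.96 kb had a fold of 42.1 (−log10 q 160), with neighbors at −7.84 kb (fold 13.1) and −5.17 kb (fold 4.84). The cluster spans 2968 bp from chr1:133342483 to 133345450, with gaps of 1385 and 343 bp between its peaks. All 3 are ADR only, and the nearest PBS peak begins 2215 bp after the last of them.

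Among all 12955 ADR-only peaks the one at −5.96 kb had the second highest fold, and 99.4% of all ADR peaks had a lower fold. The highest, with a fold of 46.1, lies 92.0 kb from the nearest coding start, that of *Gm13090*. The next 3 places among ADR-only peaks had folds of 40.7, 40.3 and 37.0, the last a tie of a pair. Their nearest coding starts were those of *Celf4* (1538 kb away), *F930015N05Rik* (108 kb), *Mapt* (17.7 kb) and *Acadsb* (42.7 kb). By the fold of the highest ADR-only peak within 10 kb of its start, *Ren1* ranked 1 and *Kiss1* 7 among 21951 coding genes, of which 3084 had such a peak. Of all ADR-only peaks, 48 (0.371%) had a fold of at least 30, and 2 of these are at this locus, the peaks at −5.96 and −27.1 kb.

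**Figure D2:**
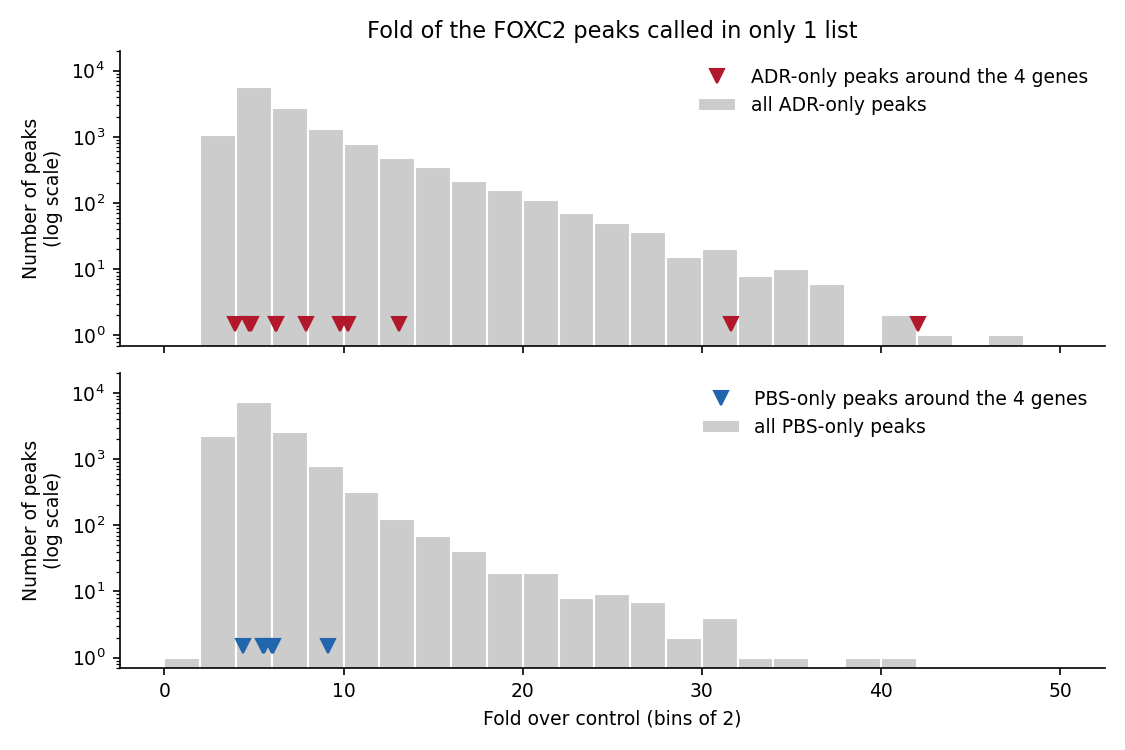
Number of peaks (vertical axis, log scale) by fold over control (horizontal axis, bins of 2) for all peaks called in only 1 list (gray), ADR above and PBS below, with the peaks around the 4 genes as triangles. The ADR-only triangles at 42.1 and 31.6 lie in the sparse upper end of the 12955 ADR-only peaks, while the PBS-only triangles reach 9.11.

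The only PBS peak within 10 kb of the *Ren1* start, at −2.60 kb (chr1:133347665-133348066), had a fold of 4.36 (−log10 q 5.16) and is PBS only. Of all PBS peaks, 13.8% had a lower fold. This peak contains the whole classical *Ren1* enhancer as RefSeq annotates it on GRCm38 (chr1:133347803-133348046, 244 bp), an element that RefSeq describes as important for baseline renin expression in the kidney and for normal arterial blood pressure. The peak runs 138 bp past the enhancer on the left and 20 bp on the right, and its summit falls 108 bp after the enhancer's first base. Its sequence is printed because the only peak inside the annotated regulatory region lies on it. Capitals mark the joined RefSeq sites of CREB1 and CREM (133347968 to 133347988), USF1 and USF2 (133347982 to 133348001) and RXRA (133347990 to 133348021).

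*Ren1* enhancer (chr1:133347803-133348046): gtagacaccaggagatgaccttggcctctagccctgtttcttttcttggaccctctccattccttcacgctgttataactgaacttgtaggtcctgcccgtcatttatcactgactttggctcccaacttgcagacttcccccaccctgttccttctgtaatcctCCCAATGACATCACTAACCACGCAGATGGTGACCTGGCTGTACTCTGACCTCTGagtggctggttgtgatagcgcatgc

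The capitals begin with the cAMP response element, pass through the E box that upstream transcription factors bind, and end with nuclear receptor sites. RefSeq lists 36 regulatory features upstream of and around the *Ren1* start. The PBS peak held 18 of these 36 features and 14 of the 21 protein binding sites among them, while 0 features overlapped an ADR peak. The 18 features are the enhancer itself and records within it, many of which overlap or repeat a position, so they are not separate elements. A promoter fragment that RefSeq names after its length of 4.1 kb, and that directs expression to juxtaglomerular cells, covers 133345987 to 133350681, which is 4695 bp on GRCm38. The ADR peak at −5.96 kb ended 1090 bp before that fragment, and the ADR peak at −5.17 kb 537 bp before it. Between the end of the highest ADR peak and the start of the enhancer's PBS peak lay 2768 bp. The ADR cluster and the PBS peak therefore occupied separate sequence, the cluster outside the annotated fragment and the PBS peak inside it. A list holds called peaks only, so a site without a peak can still carry signal below the authors' threshold. The PBS peak on the enhancer was low in its list but above its lowest values. Its fold was 4.36 and its −log10 q 5.16, where the lowest of the PBS list were 1.54 and 1.34.

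**Figure D3:**
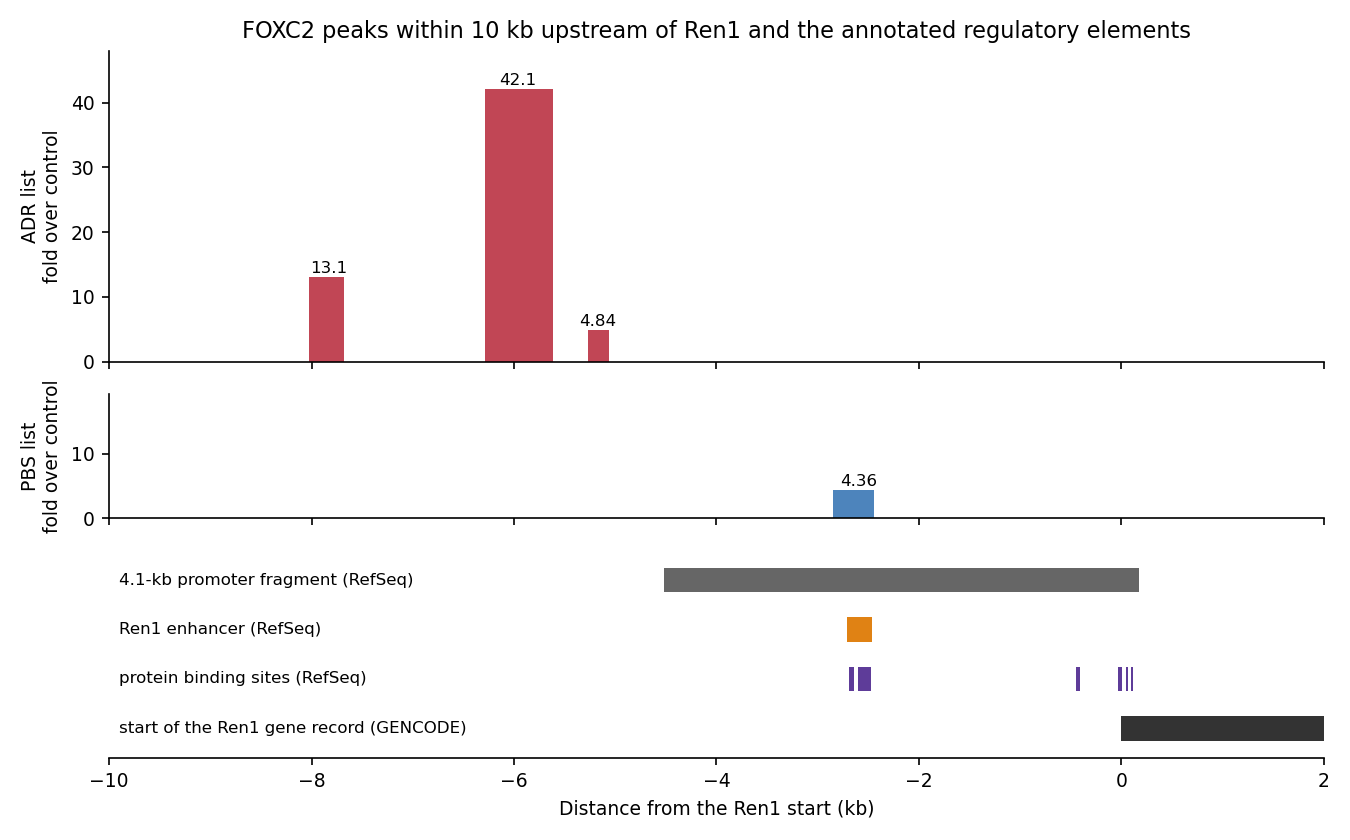
Peaks from −10 kb to 2 kb of the *Ren1* start as bars with their true width (horizontal axis, kb) and their fold over control (vertical axis, the same scale for both lists), ADR list on top and PBS list below it, above the RefSeq promoter fragment, enhancer and protein binding sites. The 3 ADR bars (13.1, 42.1 and 4.84) end before the fragment begins, and the PBS bar (4.36) stands on the enhancer.

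The body of *Ren1* held no called peak in either list. From the end of the last upstream peak to the first peak past the gene, the lists left 17.9 kb without a peak in the ADR list and 15.3 kb in the PBS list. The proximal promoter, with its TATA box and the HOXD10 site that RefSeq places there, lies in this stretch.

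The second highest ADR-only peak of the locus belongs to *Kiss1* by position. It lies at chr1:133323060-133323771, with a fold of 31.6 (−log10 q 114), in an intron of the GENCODE records of *Kiss1* and of the readthrough gene *Gm28040*. Its summit is 1563 bp after the GENCODE start of *Kiss1* and at −3774 bp from the RefSeq start, since the annotations place the first exon differently, so it is intronic by GENCODE and upstream of the gene by RefSeq. The nearest PBS peak lies 13148 bp away. No PBS peak lay within 10 kb of *Kiss1*, and 1 ADR peak did.

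*Golt1a* had the opposite arrangement at its start. A PBS-only peak (chr1:133309669-133309912, fold 6.04) covered the start itself, with its summit at −17 bp, and the ADR list called no peak within 10 kb of it. The nearest ADR peak was at −53.9 kb from *Ren1* (fold 10.3), in an intron of *Plekha6*, which encodes a pleckstrin homology domain protein. The other 3 ADR-only peaks of the windows left of *Golt1a* lay in introns of *Plekha6* too, with folds of 6.24 at −85.9 kb, 7.88 at −85.5 kb and 6.24 at −62.4 kb, and no PBS peak of the windows lay in that gene.

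*Etnk2* had a peak at its start in both lists, with a lower fold in the ADR list. The fold at the start was 5.49 in the ADR list and 9.04 in the PBS list, a log2 difference of −0.72. An intronic site at 17.3 kb from the *Ren1* start had 4.59 in the ADR list and 4.94 in the PBS list (−0.11), and one at 25.6 kb had 6.24 in the ADR list and 5.43 in the PBS list (0.20). A further intronic peak at 28.0 kb was ADR only (fold 4.71).

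The fourth site called in both lists lies past *Etnk2* in an intron of *Sox13*, which encodes a SOXD transcription factor and runs on the minus strand toward the locus. Its fold was 25.0 in the ADR list and 6.53 in the PBS list, at 37.6 kb from the *Ren1* start, a ratio of 3.83 and a log2 difference of 1.94. Over all 26703 sites called in both lists the median log2 difference was 0.05, and 12.9% had an ADR fold at least 2 times the PBS fold, as 1 of these 4 sites did. Around it the calls of the lists alternated within *Sox13*: PBS-only peaks at 32.3 kb (fold 5.49) and 35.9 kb (6.01), an ADR-only peak at 35.1 kb (3.91), and farther in an ADR-only peak at 57.3 kb (9.79) and a PBS-only peak at 62.6 kb (9.11). A PBS-only peak at 31.7 kb (5.57) overlapped the end of the *Sox13* record, with its summit just past it. Nearest neighbors here were close, since the ADR peak at 35.1 kb and the PBS peak at 35.9 kb are 403 bp apart.

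The 25 peaks merged into 21 sites, of which 11 were ADR only, 6 PBS only and 4 called in both lists. The ADR-only share was 73.3% of the ADR peaks here, against 32.3% of the whole ADR list, and the PBS-only share was 60.0% of the PBS peaks here, against 33.1% of the whole PBS list. Within the windows, the *Ren1* start divided the locus. Upstream of it lay 8 ADR peaks and 2 PBS peaks, and none of these was shared. Downstream lay 7 ADR peaks, 3 of them ADR only, and 8 PBS peaks, 4 of them PBS only. The median fold was 9.07 for ADR and 5.20 for PBS upstream, and 5.49 for ADR and 5.79 for PBS downstream. Over the whole locus it was 6.24 for ADR and 5.79 for PBS, beside medians of 7.42 in the whole ADR list and 6.53 in the whole PBS list. The locus thus held mostly ordinary or low folds, with the 3 ADR peaks at −5.96, −27.1 and 37.6 kb standing far above the others and no PBS peak above 9.11.

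By gene, *Golt1a* had 8 ADR peaks and 2 PBS peaks within 50 kb, *Kiss1* had 8 ADR peaks and 4 PBS peaks, *Ren1* had 10 ADR peaks and 9 PBS peaks, and *Etnk2* had 11 ADR peaks and 9 PBS peaks. The windows overlap, so a peak counts for several genes and the 4 counts are not separate observations. All 4 genes had more ADR than PBS peaks, as did 20.9% of 21951 coding genes, while 33.9% had fewer. The difference of 6 peaks at *Golt1a* was reached or passed by 0.41% of coding genes, and it was made up of the peaks upstream of *Ren1*. At 5 kb the direction at *Golt1a* and *Ren1* turned, with 0 ADR peaks and 1 PBS peak at each gene.

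**Figure D4:**
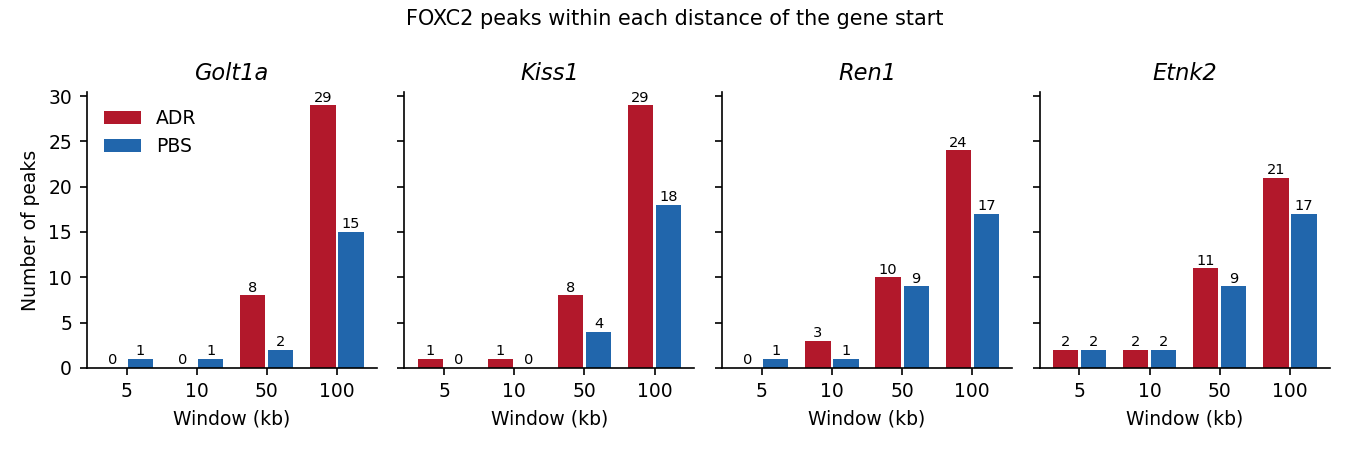
Number of FOXC2 peaks (vertical axis) within 5, 10, 50 and 100 kb of the start of each gene, ADR list red and PBS list blue, 1 pooled list per condition. At 50 kb *Golt1a* had 8 ADR and 2 PBS peaks and *Ren1* 10 and 9, while at 5 kb each had 0 ADR peaks and 1 PBS peak.

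The edges of the windows cut through further binding. Just inside the left edge the ADR-only peak at −85.9 kb had a fold of 6.24, and just outside it, by 4.53 kb, another ADR-only peak had a fold of 12.3. Farther left, at −105 kb, a *Plekha6* intron site was called in both lists, with a fold of 8.97 in the ADR list and 5.23 in the PBS list. The absence of shared sites upstream of *Ren1* thus holds for the windows only. On the right the PBS-only peak at 62.6 kb (9.11) was the last inside, and 1.43 kb past the edge a *Sox13* intron site was called in both lists, with a fold of 15.9 in the ADR list and 4.46 in the PBS list.

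Motif strings were searched as exact matches on both strands within 100 bp of each summit. The forkhead pattern was A or G, C or T, AAA, C or T, A. LMX1B was TTAATTA or TAATTAA, TEAD CATTCC, AP-1 TGACTCA or TGAGTCA, the cAMP response element core TGACGT, the nuclear receptor monomer site AGGTCA, the E box CACGTG, NF-Y CCAAT, RBPJ GTGGGAA, and HOX and PBX TGATNNAT. WT1 was GNGTGGGAG, GNGTGGGCG, GNGGGGGAG or GNGGGGGCG, and KLF GGGTGTGG, GGGCGTGG, GGGCGGGG or GGGTGGGG, and the WT1 and KLF strings share bases. A match is a description of the sequence and not a measured site.

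Of the 15 ADR summits 4 had a forkhead match and 4 a WT1 match, beside 25.1% and 29.0% of all ADR summits. Of the 10 PBS summits 3 had a forkhead match and 2 a WT1 match, beside 19.5% and 28.6% of all PBS summits. A forkhead match was at 3 of the 11 ADR-only summits, beside 36.7% of all ADR-only summits. It was at 2 of the 6 PBS-only summits, beside 20.4% of all PBS-only summits. The highest peak, at −5.96 kb, held 2 forkhead matches whose nearest bases were 84 and 80 bp from the summit and 2 LMX1B matches at 71 and 42 bp. LMX1B is a LIM homeodomain factor of podocytes. An LMX1B match was present at 3.52% of ADR summits and 6.89% of ADR-only summits, 2 or more at 1.16% and 2.47%, and a forkhead and an LMX1B match together at 1.37% and 2.96%.

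RBPJ, the DNA-binding partner of Notch, has been described in mice as a regulator of renin expression. Its string GTGGGAA stood near the summit of 3 of the 11 ADR-only peaks, 2 bp away at −7.84 kb, 17 bp at −27.1 kb and 9 bp at 28.0 kb, where 4.93% of all ADR-only summits and 5.20% of all ADR summits had it within 100 bp. It was also present at 1 of the 6 PBS-only summits, 71 bp away at 32.3 kb, beside 5.97% of all PBS-only summits. Other strings were as frequent. KLF was at 3 of the 11 ADR-only and 2 of the 6 PBS-only summits, beside 10.4% and 13.3% of these summits in the whole lists. TEAD was at 1 of the 11 and 3 of the 6, beside 19.5% and 15.8%. At −53.9 kb the WT1 string GCGTGGGCG covered the summit base. The PBS summit on the *Ren1* enhancer had a HOX and PBX match (TGATAAAT) over the summit base, a KLF match at 31 bp and a TEAD match at 46 bp. It also had an NF-Y match at 58 bp and 2 nuclear receptor monomer sites at 88 and 86 bp, and no forkhead match within 100 bp. The AP-1 string was at 0 of 15 ADR summits, beside 4.02% of all ADR summits, and at 1 of 10 PBS summits, that on the *Etnk2* start, beside 9.33% of all PBS summits.

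**Figure D5:**
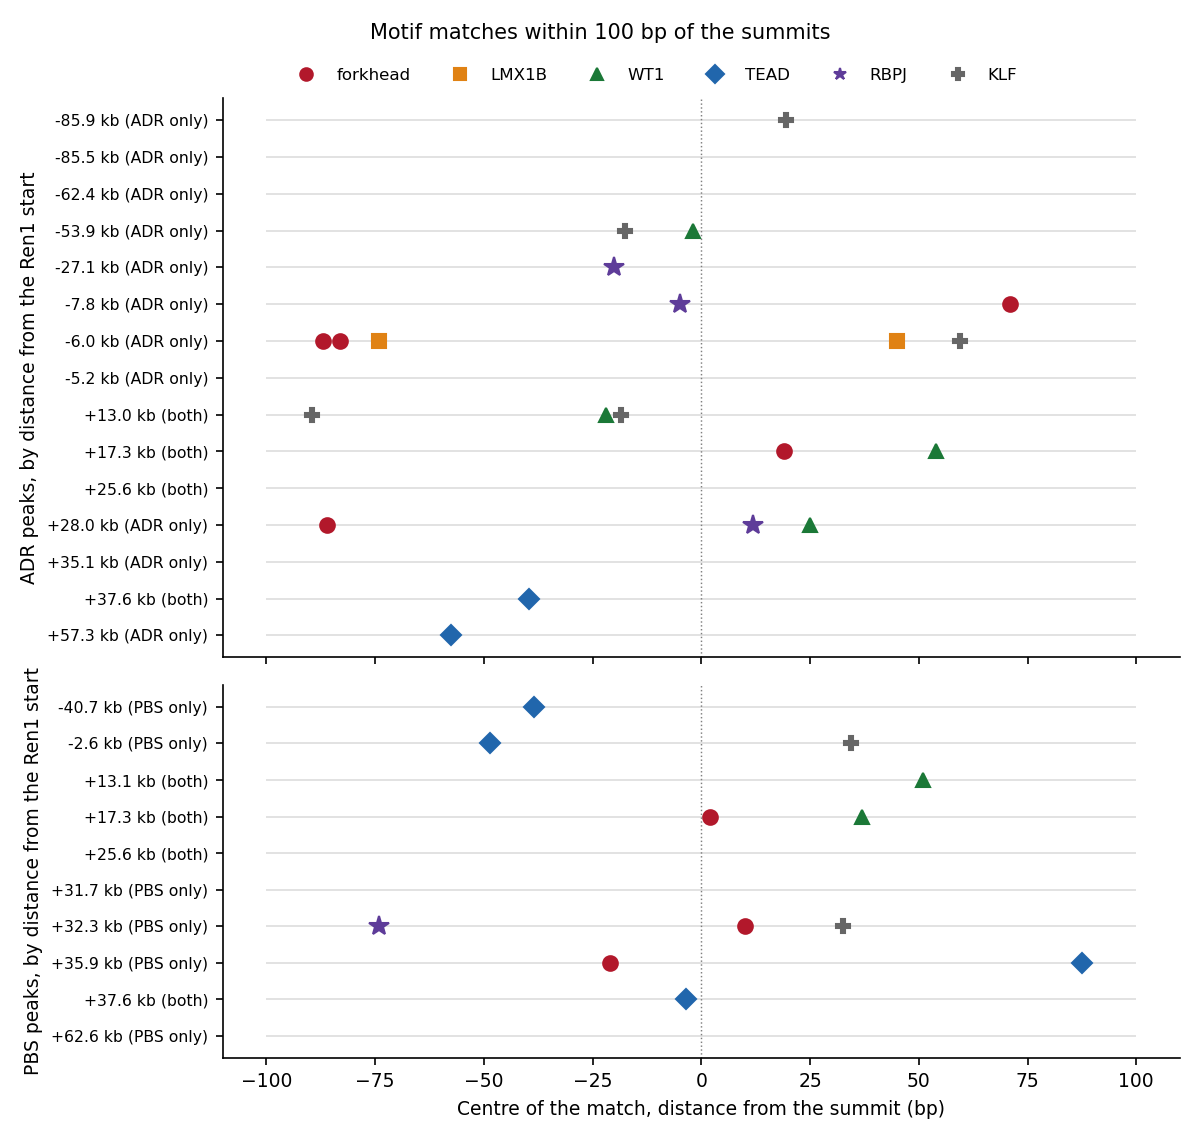
Position of motif matches (horizontal axis, center of the match in bp from the summit) at each peak of the locus (rows, by distance from the *Ren1* start), ADR peaks on top and PBS peaks below, for 6 of the 12 motifs. The row at −6.0 kb in the ADR panel holds 2 forkhead, 2 LMX1B and 1 KLF symbol, and the RBPJ symbols of the ADR panel lie within 23 bp of the summits at −27.1, −7.8 and 28.0 kb.

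Mouse strains differ at this locus. C57BL/6J chromosomes, which GRCm38 represents, have *Ren1* alone, whereas 129 and other strains carry a tandem copy, *Ren2*. The strain of origin of this locus in the mixed-background mice is not given in the sources used here. On a reference with *Ren1* alone, reads from an allele with *Ren2* could be placed only at the locus of *Ren1*. How the reads were aligned was not examined, and the alleles cannot be told apart in these lists. Each 201-base summit window was therefore compared with the whole assembly, a match being at least 90% identity over at least 150 bases. None of the 25 windows had a match elsewhere on the chromosomes. On the 129S6/SvEvTac contig, which carries both genes with starts 30.7 kb apart, 22 windows matched once and 3 matched 2 times. The windows with 2 matches were both windows on the *Etnk2* start and the PBS window on the enhancer, which matched 98.0% of bases upstream of *Ren1* and upstream of *Ren2* alike.

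The 3 windows of the ADR cluster matched the contig once each, with identities of 100%, 97.5% and 97.0%, and the match lay beside *Ren2*. The highest peak's window was at −6.55 kb from the *Ren2* start and at −37.2 kb from the *Ren1* start of that contig. On a C57BL/6J allele the ADR cluster is thus the sequence next upstream of *Ren1*, and on a 129 allele the sequence next upstream of *Ren2*, while the enhancer stands in front of both genes.

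The coding genes on other chromosomes, or over 500 kb from *Ren1*, whose pattern was most like that of *Ren1* were chosen by the distance over 4 values on the log2 scale, the numbers of peaks and the highest folds of both lists within 50 kb. They were *Fyn* (distance 0.31), *Arhgef12* and *Tmem136* (0.36 each, neighbors that share peaks), *Gpx4* (0.41) and *Angel1* (0.44). *Fyn*, which encodes a kinase that phosphorylates nephrin, had 8 ADR peaks with a highest fold of 39.6 and 9 PBS peaks with a highest fold of 9.36, beside 10 ADR peaks up to 42.1 and 9 PBS peaks up to 9.04 at *Ren1*. The distance did not use whether a peak was called in both lists. Of the ADR-only peaks 0 had a fold from 38 to 40, so the highest ADR peak of *Fyn* overlapped a PBS peak, unlike that of *Ren1*.

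Of 14 other genes of the renin-angiotensin system, 3 had more ADR peaks within 50 kb, 3 had fewer and 8 had the same number, with 39 ADR peaks and 37 PBS peaks in all. Over all 21951 coding genes, 20.9% had more and 33.9% fewer, so these counts are near the background for more. *Enpep*, the aminopeptidase that degrades angiotensin II, had 11 ADR peaks and 7 PBS peaks, with highest folds of 38.0 in the ADR list and 30.8 in the PBS list. *Mme*, which encodes neprilysin, had 4 ADR peaks and 2 PBS peaks, and *Ace*, the angiotensin-converting enzyme, had 5 ADR peaks and 8 PBS peaks. *Agt*, the substrate of renin, had 2 peaks in each list, the receptor gene *Agtr1a* had 3 in each, and *Agtr1b* and *Agtr2* had none in either.

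Of 21 genes of the pathways that control renin transcription and release, 7 had more ADR peaks, 7 fewer and 7 the same number, with 139 ADR peaks and 143 PBS peaks. The shares of all coding genes were 20.9% with more and 33.9% with fewer. *Foxd1*, a forkhead factor of the stromal precursors from which renin cells derive, had 11 ADR peaks and 9 PBS peaks. *Adrb1*, the receptor through which sympathetic nerves release renin, had 1 peak in each list, with a fold of 16.4 in the ADR list and 5.43 in the PBS list, and *Rbpj* had 0 ADR peaks and 1 PBS peak.

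Peaks were also counted at marker genes of the labelled cell type and of other cells. All 9 podocyte markers counted had peaks within 10 kb in both lists. Of 12 markers of renin cells and vascular smooth muscle, 5 had an ADR peak and 8 a PBS peak within 10 kb. Among 7 endothelial markers 3 had an ADR peak and 3 a PBS peak at that distance, and among 6 proximal tubule markers 3 and 1. The share of all coding genes with a peak within 10 kb was not computed, so these counts cannot settle the cell type. Within 50 kb 20.9% of all coding genes had more ADR peaks and 33.9% fewer. At that distance 7 podocyte markers had more ADR peaks and 2 fewer (107 ADR peaks and 92 PBS peaks). Of 12 markers of renin cells and vascular smooth muscle, 5 had more ADR peaks within 50 kb, 6 fewer and 1 the same number (61 ADR peaks and 60 PBS peaks). The renin cell marker *Akr1b7* had 3 ADR peaks with a highest fold of 16.0 and 2 PBS peaks with a highest fold of 26.9, and 0 peaks within 10 kb in either list. Within 50 kb 1 of the 7 endothelial markers had more and 4 fewer (23 ADR peaks and 34 PBS peaks). Of the 6 proximal tubule markers 3 had more and 2 fewer (30 ADR peaks and 21 PBS peaks). Their part in the peaks at *Ren1* was not tested.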

How the data were processed

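FOXC2 ChIP-seq libraries of sorted podocytes (3 samples per condition) were sequenced as single-end reads. After trimming and alignment to GRCm38, the authors ran nf-core/chipseq in its narrow-peak mode and combined the replicates of each condition. The peak caller, its version and its threshold are not given in the sources used here. The deposited lists have 10 columns, of which the positions, the summit, the fold over local control (a ratio) and the −log10 q-value were used. The deposited score and −log10 p were not used. Depth is unknown, so no interval could be computed. Peak names bear an R1 tag in both lists, so a list made from 1 replicate cannot be told apart from a pooled one here.

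Peaks were assigned to genes of GENCODE M21 with Python 3.11.15, NumPy 2.4.6 and pandas 2.3.3. Peaks sharing 1 bp were merged into sites, and a site took the highest fold of each list. Sequence, regulatory features and the 129S6/SvEvTac contig came from RefSeq (GRCm38.p6), read with pysam 0.24.0, and windows were compared with BLAST+ 2.17.0. Plots were drawn with matplotlib 3.10.9. Counting and motif steps were tested on simulated lists. The members, the gene lists and the motifs were chosen with earlier results of these data known. Named genes were the 4 members, coding genes overlapping the windows, the 5 genes most like *Ren1*, the genes nearest to the 5 highest ADR-only peaks, and examples from the lists. Alternatives were windows of 5, 10 and 100 kb, any transcript start, summits in the window, stricter thresholds, shorter lists, other overlap rules, centered or mean folds and other motif windows. A podocyte marker of the list was left out of the counts and is not reported here.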

Additional observations from a re-analysis of the deposited data

How the results depend on the processing

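Of 92 alternative values, 56 stayed within 1.5 times of the main value (log2 differences within 0.1) and 31 moved further, which smaller or larger windows and shorter lists do by their construction, and 5 changed sign. Within 5 kb there were 3 ADR and 4 PBS peaks (1 ADR only, 2 PBS only), and ADR minus PBS was −1 at *Ren1*, 1 at *Kiss1*, −1 at *Golt1a* and 0 at *Etnk2*. Within 10 kb there were 6 ADR and 4 PBS peaks (4 ADR only, 2 PBS only), with differences of 2, 1, −1 and 0 in the same order of genes. Within 100 kb there were 35 ADR and 23 PBS peaks (20 ADR only, 8 PBS only), with differences of 7, 11, 14 and 4. The whole lists had 32.3% ADR-only and 33.1% PBS-only peaks. Requiring a −log10 q of 5 or more, or a fold of 5 or more, the difference was −1 at *Ren1* and 0 at *Etnk2*. Among the 20000 peaks with the smallest q of each list, 7 ADR peaks, 7 of them ADR only, and 2 PBS peaks, 2 of them PBS only, were left, and the difference at *Ren1* was 3. The ADR-only and PBS-only shares of all peaks in these shortened lists were not computed, so the counts have no background. Forkhead matches were at 3 of 11 ADR-only summits within 100 bp, 0 within 50 bp and 5 in the whole peak. Of all ADR-only summits, 36.7% had a match within 100 bp and 20.8% within 50 bp. Within 10 kb, 2 genes of the renin-angiotensin list had more ADR peaks, 1 had fewer and 11 had the same number. Of the renin regulators, 4 had more, 5 had fewer and 12 had the same number. The shares of all coding genes with more or fewer ADR peaks within 10 kb were not computed. The cause of these changes was not tested further. Smaller shifts came from any transcript start (16 ADR and 11 PBS peaks), an overlap of 50% of both peaks (12 ADR only, 7 PBS only) and centered folds (log2 differences of −0.77, −0.15, 0.15 and 1.89). The shares of the whole lists under the 50% rule were not computed. Requiring the summit in the window, pairing by summits within 200 bp and mean folds gave the main values. The excess of ADR peaks at *Ren1* thus depends on the window and the threshold.

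No paired analysis was possible because the deposited lists are pooled and carry no replicate columns. Each list is a single measurement, so the spread between animals is unknown, and a peak missing from a list can lie just under the authors' threshold.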

Other observations

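Binding continued past the windows on both sides, at sites picked after their values were seen. In introns of *Plekha6* a site at −128 kb from the *Ren1* start (chr1:133222383-133223229) was called in both lists, with a fold of 39.1 in the ADR list and 18.9 in the PBS list. Another intron site at −145 kb had folds of 18.9 in the ADR list and 4.36 in the PBS list. On the other side the start region of *Sox13* was called in both lists at 74.1 kb, with a fold of 20.3 in the ADR list and 13.5 in the PBS list. At 118.9 kb an intergenic site ran the other way, with 11.4 in the ADR list and 24.3 in the PBS list. These values have no replicate error.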
